A study of Rattus norvegicus with 9 samples.

Results

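The early genes outside the AP-1 family that were followed here were Egr1, Egr2 and Egr3, Nr4a1, Nr4a2 and Nr4a3, Ier2, Ier3 and Ier5, and Csrnp1. These 10 genes were chosen by name as rows of the deposited count table, out of 37203 gene symbols, and all 10 passed the filter on low counts that left 15482 genes for testing. Transcripts were counted in superior mesenteric artery (SMA) tissue, the vessel that feeds most of the small intestine, from Sprague-Dawley rats aged 8 weeks. The Normal group had 3 libraries, the Ischemia 1h group had 3 and the Ischemia 4h group had 3. Ischemia was made by bleeding through a catheter in the right femoral artery under pentobarbital, and its duration was counted from the end of that procedure. Whether the normal rats had the same anaesthesia and catheter is not given in the sources used here, so bleeding and surgery cannot be told apart. No source says how many rats gave each library beyond 3 rats per group, and p-values measure the spread between these libraries.

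Immediate early genes are transcribed within minutes of a stimulus without new protein synthesis, because the factors that switch them on are already present in the cell. Serum response factor bound at CArG boxes and CREB bound at cyclic AMP response elements (CREs) are the classic switches. EGR1, EGR2 and EGR3 are zinc finger transcription factors, and NR4A1 (Nur77), NR4A2 (Nurr1) and NR4A3 (NOR-1) are orphan nuclear receptors whose activity follows mainly from how much of them is made. In arteries EGR1 is known as a switch of the injury response, and NR4A receptors are known in smooth muscle and endothelium as regulators of growth and inflammation.

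Total counts per library ran from 13114273 to 15504240. Levels are given as CPM, counts scaled to a common library size after TMM normalisation, on which 1 count was worth 0.056 to 0.0829 CPM. The summed level of 8 smooth muscle markers (Myh11, Acta2 and others), an SMA's main cell type, ran from 11230 to 68680 CPM, and no smooth muscle marker was at 0 in any library. The lowest level was in normal replicate 1, against 48150 and 49330 CPM in normal replicates 2 and 3. The summed level of 18 sympathetic neuron markers was between 9090 and 9210 CPM in 3 libraries, replicates 1 and 3 at 1 h and replicate 3 at 4 h, and between 37.2 and 996.9 CPM in the other 6 libraries. Of the 18 neuron markers, 1 had an unadjusted p under 0.05 upward in each comparison with normal and 0 were called. Their median log2 fold changes were nevertheless large, 4.10 at 1 h and 2.99 at 4 h. Of 9 endothelial markers, 2 had an unadjusted p under 0.05 downward at each time, with median log2 fold changes of -0.43 at 1 h and -0.66 at 4 h, and 0 were called. The summed level of 10 Schwann cell markers, cells in which EGR2 controls myelin genes, ran from 260.0 to 5034 CPM in normal rats, from 1373 to 2764 CPM at 1 h and from 549.7 to 2488 CPM at 4 h. Normal replicate 1 had the 5034 CPM and also the highest summed endothelial marker level of all libraries, 1619 CPM. Because whole tissue was sequenced, fewer cells of a type and less RNA per cell cannot be told apart. Fits were repeated with the neuron markers' mean log2 CPM (the neuron score) as a covariate, and the part of the smooth muscle, endothelial and Schwann cell values in the results was not tested.

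Promoters are shown because SRF and CREB sites near the start of a gene are what early genes are known for. The 250 bases before the start were searched on both strands in the RefSeq promoters of rat assembly GRCr8, which held 6 of the 10 genes (Egr3, Nr4a3, Ier3 and Csrnp1 were not in the table). Capitals mark CArG boxes and the short CRE core CGTCA, and the distance is counted in bases back from the start. The Egr1 stretch is chr18:26736938-26737077, plus strand, the Egr2 stretch is chr20:21054442-21054581, minus strand, the Ier2 stretch is chr19:40399233-40399372, plus strand, and the Nr4a1 stretch is chr7:134259888-134260137, plus strand. Each is written 5′ to 3′ along the gene and ends at the base before the start.
Egr1: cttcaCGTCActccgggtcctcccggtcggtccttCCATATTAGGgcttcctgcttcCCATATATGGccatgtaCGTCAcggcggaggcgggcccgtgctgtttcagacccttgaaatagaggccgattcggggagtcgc
Egr2: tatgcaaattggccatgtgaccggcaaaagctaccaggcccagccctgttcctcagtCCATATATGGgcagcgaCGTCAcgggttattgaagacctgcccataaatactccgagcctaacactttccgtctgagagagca
Ier2: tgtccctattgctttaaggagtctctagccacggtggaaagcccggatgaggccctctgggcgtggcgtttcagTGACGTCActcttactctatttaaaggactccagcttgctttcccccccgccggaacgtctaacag
Nr4a1: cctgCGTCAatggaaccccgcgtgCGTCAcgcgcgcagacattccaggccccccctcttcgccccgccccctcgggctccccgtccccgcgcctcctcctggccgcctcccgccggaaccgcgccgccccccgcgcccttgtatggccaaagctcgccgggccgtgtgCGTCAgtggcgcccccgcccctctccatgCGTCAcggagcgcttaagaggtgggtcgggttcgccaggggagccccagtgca

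Egr1 held CArG boxes at 105 to 96 and at 83 to 74 bases before the start, with CRE cores at 135 to 131 and 66 to 62. Egr2 held a CArG box at 83 to 74 and a CRE core at 66 to 62, the same distances as the inner pair of Egr1, and the letters of that CArG box, CCATATATGG, were the same in both. Nr4a1 held 4 CRE cores (at 246, 226, 82 and 53 bases before the start, counted at the far end) and no CArG box. Ier2 held the full CRE TGACGTCA at 66 to 59, in which the 2 CRE cores overlap. Nr4a2 held a CRE core at 8 to 4, and Ier5 held none of these motifs. Among 33469 promoters of this length, 1.5% held a CArG box, 1.59% the full CRE and 18.2% the CRE core. The EGR site GCGGGGGCG (2.45% of promoters) was found in Nr4a1 at 73 to 65 on the opposite strand, and GCGTGGGCG (0.478%) and the NR4A site AAAGGTCA (1.24%) were found in none of the 6. The NF-kB motif (5.18% of promoters) was found in Nr4a1 at 16 to 7 on the opposite strand. A match of letters is not evidence of binding.

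To see which early genes were altered in the early stage of ischemia, 1 h was compared with normal. The 10 genes were chosen with earlier results of these data known. Their counts and medians, here and below, are therefore not independent of those results. All 10 genes had a positive log2 fold change, with a median of 2.52 against -0.0080 over all 15482 genes, but only Csrnp1 passed the test, which asked for a fold change over 1.5 and an adjusted p under 0.05 (edgeR quasi-likelihood test, Benjamini-Hochberg adjustment over all genes tested). The background of genes called higher in this comparison was 0.0517%. An unadjusted p under 0.05 in the upward direction was found for 8 of the 10 genes, against 7.98% of all genes. In 7 of the 10 genes every 1 h library lay above every normal library, against 12.8% of all genes. The genes outside these 7 were Nr4a2, Ier3 and Ier5. In the late stage, 4 h against normal, Nr4a1 and Csrnp1 passed the test, against 0.0646% of all genes called higher. An unadjusted p under 0.05 upward was found for 7 genes (background 5.07%), and 8 genes had 4 h libraries entirely above normal ones (background 7.93%). All 10 log2 fold changes were positive again, with a median of 1.57 against 0.027 over all genes. Both comparisons use the same normal libraries. The test of all 3 groups together called 0 of the 10 genes, against 0.0388% of all genes, while 8 had an unadjusted p under 0.05, against 11.4%, and DESeq2 called 7 in that test, against 4.32% of all genes.

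**Figure D1:**
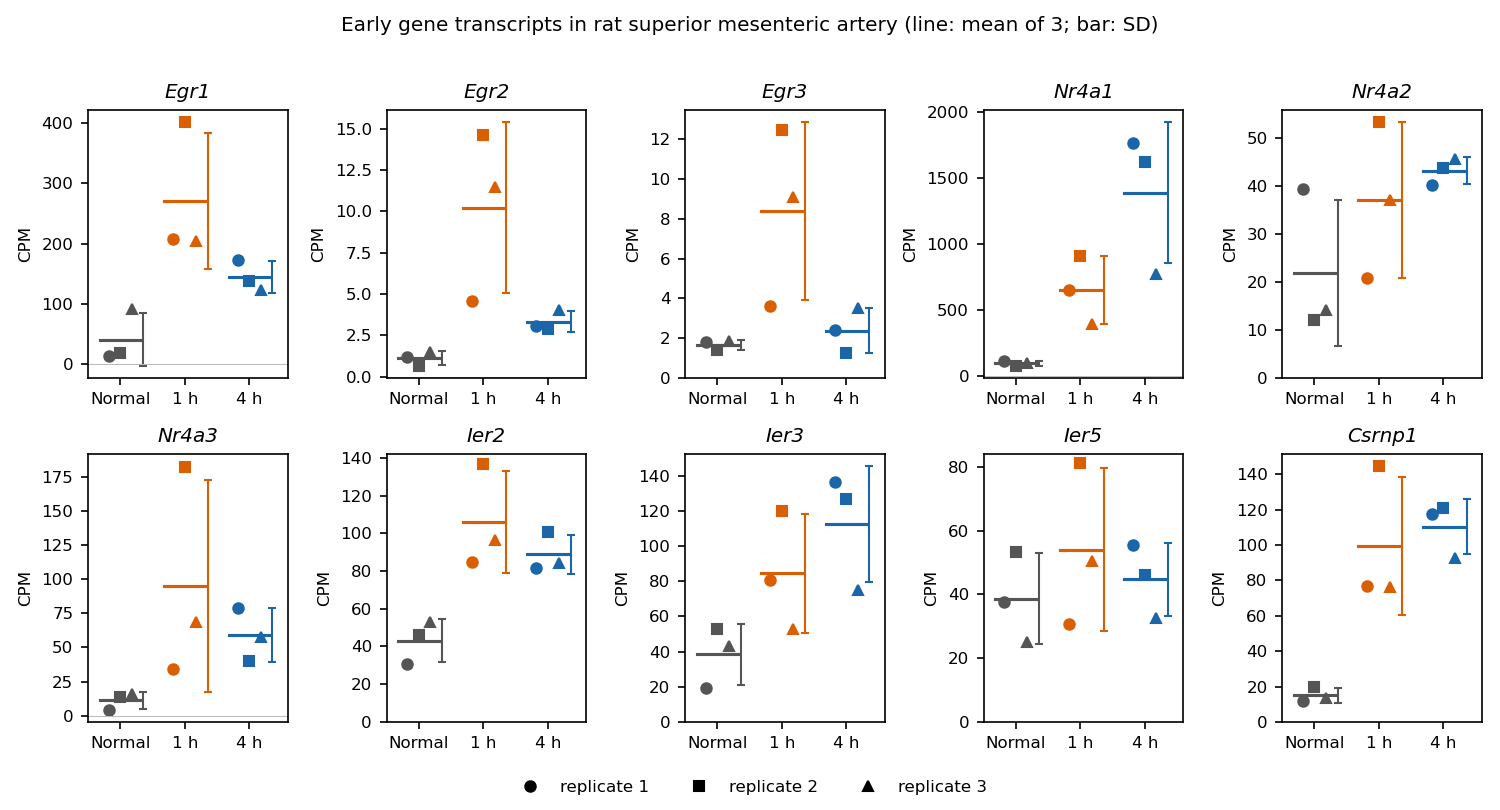
CPM (vertical axes, linear) of each of the 10 early genes in the 9 libraries, by group, with replicate number as symbol, the group mean as a line and the SD as a bar. Replicate 2 at 1 h is the highest of its group in all 10 panels, and the Nr4a1 panel reaches 1765 CPM at 4 h.

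Within the 1 h group, replicate 2 was the highest library for all 10 genes. That library had a summed neuron marker level of 996.9 CPM and a summed smooth muscle marker level of 46820 CPM. The other libraries at 1 h had 9090 and 9210 CPM of neuron markers and 25320 and 12830 CPM of smooth muscle markers. At 4 h no library led in this way, with replicate 1 highest for 5 genes, replicate 3 for 3 and replicate 2 for 2.

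Egr1, the best known EGR factor of injured arteries, was at 13.1, 19.1 and 91.0 CPM in normal replicates 1 to 3. At 1 h it was at 207, 401 and 204 CPM, and at 4 h at 173, 138 and 122 CPM. Neither ischemic group overlapped normal, and normal replicate 3 stood well above the other normal libraries. Its log2 fold change was 2.72 at 1 h (SE 0.72, adjusted p = 0.211 by edgeR) and 1.82 at 4 h (SE 0.69, adjusted p = 0.338). Without normal replicate 1 these values were 2.30 and 1.39, the lowest of the fits that each left out 1 library. The highest, 4.08 (adjusted p = 0.0854) and 3.17 (adjusted p = 0.121), came without normal replicate 3. Of 36 other early genes, 13 were highest among normal rats in that library and 11 were lowest there. Fos and Junb, picked after their values were seen, were among those highest: Fos was at 278 CPM there against 5.21 and 15.2 CPM, and Junb at 223 CPM against 49.3 and 76.6 CPM.

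Egr2 was a low transcript, at 1.18, 0.66 and 1.48 CPM in normal rats (21, 9 and 20 counts). It was at 4.55, 14.6 and 11.5 CPM at 1 h and at 3.06, 2.90 and 4.03 CPM at 4 h, so the groups did not overlap in any pairing. The log2 fold change was 3.2 at 1 h (SE 0.51), the largest of the 10 genes at that time, with an adjusted p of 0.117 by edgeR, and 1.59 at 4 h (SE 0.49, adjusted p = 0.246). Egr3, known for its part in muscle spindles and T cells, was at 1.79, 1.39 and 1.85 CPM in normal rats, at 3.61, 12.5 and 9.09 CPM at 1 h and at 2.40, 1.24 and 3.50 CPM at 4 h. All 1 h libraries were above normal, whereas 4 h libraries overlapped normal. Its log2 fold change was 2.32 at 1 h (SE 0.54, adjusted p = 0.189 by edgeR) and 0.51 at 4 h (SE 0.53, 95% interval -0.70 to 1.72, adjusted p = 0.708). Egr4, the remaining EGR gene, was too low to be tested, with 0 counts in each normal library, 6, 1 and 8 counts at 1 h and 0, 0 and 1 counts at 4 h. It was chosen for mention after its values were seen.

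Nr4a1 had the largest change of the 10 genes at 4 h. It was at 112, 76.3 and 95.1 CPM in normal rats, at 649.6, 905 and 396 CPM at 1 h, and at 1765, 1623 and 776 CPM at 4 h. Both ischemic groups lay far above normal, and among 4 h libraries replicate 3 was the lowest. That library carried high neuron markers and also the lowest summed smooth muscle markers at 4 h, 24370 CPM against 68680 and 49640 CPM. The part of the smooth muscle level was not tested. Nr4a1 rose 14.7-fold at 4 h (log2 fold change 3.88, SE 0.46, adjusted p = 0.0316 by edgeR), and only 0.691% of genes had a larger fitted change. At 1 h its log2 fold change was 2.78 (SE 0.44, adjusted p = 0.117). With the neuron score as a covariate the 4 h value was 3.79 (adjusted p = 0.0125), in a fit that called 0.73% of all genes, against 0.0904% without the covariate. The call at 4 h held without replicate 2 at 1 h (adjusted p = 0.0436) and without replicate 3 at 4 h (0.0267). It was lost when 4 h and normal libraries were fitted alone (adjusted p = 0.0925), a fit that called 0.0279% of all genes. It was also lost without any other library, with adjusted p from 0.070 without replicate 1 at 1 h to 0.193 without normal replicate 2. Over the 9 fits that left out a library the log2 fold change ran from 3.64 to 4.17.

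Nr4a3, an NR4A receptor linked to smooth muscle growth, was at 4.25, 13.7 and 16.2 CPM in normal rats. At 1 h it was at 34.3, 183 and 68.8 CPM, and at 4 h at 79.3, 39.8 and 57.5 CPM. Neither ischemic group overlapped normal, but replicate 2 at 1 h was more than 2 times the next library of its group. The log2 fold change was 3.07 at 1 h (SE 0.71, adjusted p = 0.188 by edgeR) and 2.38 at 4 h (SE 0.69, adjusted p = 0.220), and without replicate 2 the 1 h value was 2.18. Nr4a2, best known from dopamine neurons, was at 39.4, 12.0 and 14.2 CPM in normal rats, 20.9, 53.4 and 37.1 CPM at 1 h and 40.1, 43.7 and 45.6 CPM at 4 h. Its 4 h libraries were close together, and normal replicate 1 came within 1 CPM of the lowest of them. Log2 fold changes were 0.76 at 1 h (SE 0.49, 95% interval -0.36 to 1.88) and 0.98 at 4 h (SE 0.49, interval -0.15 to 2.10). Neither passed edgeR's test (adjusted p = 0.408 and 0.463). Without normal replicate 1 the values were 1.5 and 1.72, the highest of the fits that each left out 1 library. The lowest were 0.40 at 1 h, without replicate 2 at 1 h, and 0.72 at 4 h, without normal replicate 2.

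Csrnp1, a nuclear protein gene also known as Axud1, passed the test at both times. It was at 11.7, 19.9 and 13.4 CPM in normal rats, 76.9, 145 and 76.5 CPM at 1 h and 118, 121 and 92.7 CPM at 4 h. Every ischemic library was above every normal library. Csrnp1 rose 6.62-fold at 1 h (log2 fold change 2.73, SE 0.33, adjusted p = 0.0454 by edgeR) and 7.36-fold at 4 h (2.88, SE 0.33, adjusted p = 0.0284). With the neuron score as a covariate its log2 fold changes were 3.16 (adjusted p = 0.0119) and 2.95 (adjusted p = 0.00604). This covariate also raised the share of all genes called, from 0.0581% to 0.0969% at 1 h and from 0.0904% to 0.73% at 4 h. Both calls of Csrnp1 were lost when only the groups compared were fitted (adjusted p = 0.143 at 1 h and 0.0676 at 4 h). In those fits 0.0268% and 0.0279% of all genes were called. The 1 h call was lost whichever of the 9 libraries was left out, with adjusted p from 0.0586 without replicate 2 at 1 h to 0.246 without normal replicate 3, and log2 fold changes from 2.35 to 2.97. The 4 h call held without replicate 2 at 1 h (adjusted p = 0.0223) or replicate 3 at 4 h (0.0412). It was lost without any of the other 7 libraries, with adjusted p from 0.0564 to 0.163.

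The IER genes share a name for their early response, although Ier3 is not related to Ier2 and Ier5 by sequence. Ier2, a nuclear protein gene, was at 30.6, 46.1 and 52.7 CPM in normal rats, at 84.8, 136 and 96.2 CPM at 1 h and at 81.4, 101 and 84.2 CPM at 4 h. No ischemic library overlapped normal, and log2 fold changes were 1.30 at 1 h (SE 0.26, adjusted p = 0.154 by edgeR) and 1.04 at 4 h (SE 0.26, adjusted p = 0.169). Ier3, also called IEX-1 and known for its part in cell survival, was at 19.2, 52.6 and 43.4 CPM in normal rats, at 80.7, 120 and 52.6 CPM at 1 h and at 136, 127 and 75.0 CPM at 4 h. Normal replicate 2 and replicate 3 at 1 h were at the same level to within 0.1 CPM, so those groups overlapped, whereas 4 h libraries were all above normal. Its log2 fold change was 1.14 at 1 h (SE 0.44, adjusted p = 0.284) and 1.55 at 4 h (SE 0.45, adjusted p = 0.215). Ier5, whose product acts on the heat shock factor HSF1, was at 37.5, 53.4 and 25.0 CPM in normal rats, 30.6, 81.1 and 50.6 CPM at 1 h and 55.4, 46.1 and 32.6 CPM at 4 h. Its groups overlapped in every pairing. Its log2 fold changes were 0.48 (SE 0.41, 95% interval -0.44 to 1.41) and 0.21 (SE 0.40, interval -0.72 to 1.14), and at 4 h it was -0.025 when libraries were scaled by size alone, a scaling under which all genes had a median of -0.15.

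**Figure D2:**
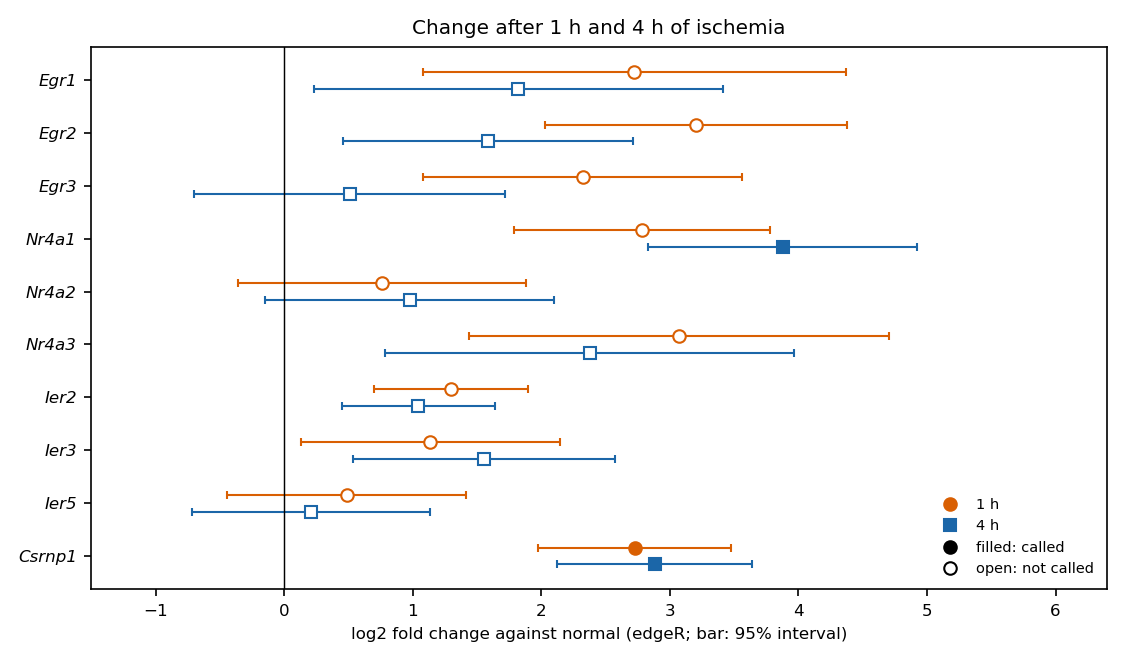
Log2 fold change against normal (horizontal axis) of each gene at 1 h (circles) and 4 h (squares) from edgeR, with 95% intervals as bars and filled symbols for the genes that passed the test. Filled symbols are Csrnp1 at 1 h and at 4 h and Nr4a1 at 4 h; intervals of Nr4a2 and Ier5 cross 0 at both times.

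DESeq2 called more of these genes than edgeR did. It called 7 at 1 h (Egr1, Egr2, Egr3, Nr4a1, Nr4a3, Ier2 and Csrnp1) and 5 at 4 h (Nr4a1, Nr4a3, Ier2, Ier3 and Csrnp1), against 4.53% and 3.94% of all genes. The fold changes of both tools were close, with log2 values for Nr4a1 of 3.88 and 3.90 at 4 h.

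The stages were then compared with each other. Between 4 h and 1 h, 0 of the 10 genes passed edgeR's test, each with an adjusted p of 0.856 or more, and 0% of all genes were called, by edgeR or by DESeq2. The group means of Egr1, Egr2, Egr3, Nr4a3, Ier2 and Ier5 were highest at 1 h, and those of Nr4a1, Nr4a2, Ier3 and Csrnp1 were highest at 4 h. This order rested on 1 library in some genes. The fitted 4 h against 1 h difference turned from -0.69 to 0.19 for Nr4a3 and from -0.28 to 0.14 for Ier5 without replicate 2 at 1 h, and from 0.22 to -0.068 for Nr4a2 without replicate 1 at 1 h. An unadjusted p under 0.05 was found downward for Egr2 and Egr3, against 1.25% of all genes, and upward for Nr4a1, against 1.33%. In all 3 EGR genes every 4 h library was below every 1 h library, against 3.04% of all genes, and 0 of the 10 genes had the reverse order, against 3.2%. For Egr3 the groups were barely apart. Replicate 1 at 1 h had 54 counts (3.61 CPM) and replicate 3 at 4 h had 53 counts (3.50 CPM). The 4 h mean was 53.4% of the 1 h mean for Egr1, 32.6% for Egr2 and 28.3% for Egr3, while for Nr4a1 it was 214%. The log2 differences were -0.91 for Egr1 (SE 0.68), -1.62 for Egr2 (SE 0.48, unadjusted p = 0.00926 in the edgeR fit) and -1.81 for Egr3 (SE 0.53, unadjusted p = 0.00881). That of Nr4a1 was 1.09 (SE 0.41, unadjusted p = 0.0278), and 0.63 (unadjusted p = 0.177) with the neuron score as a covariate. For Csrnp1 the 95% interval of the difference was -0.55 to 0.86, for Ier2 -0.84 to 0.33 and for Nr4a3 -2.20 to 0.81.

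A ratio of counts of a pair of genes within a library does not depend on library scaling. The ratio of Nr4a1 to Egr1 counts was 8.58, 4.00 and 1.05 in normal replicates 1 to 3, 3.13, 2.26 and 1.94 at 1 h and 10.2, 11.8 and 6.33 at 4 h. The 1 h and 4 h libraries did not overlap, and the normal libraries overlapped both. The mean log2 ratio was higher by 1.93 at 4 h than at 1 h. The ratio of Csrnp1 to Egr1 counts was 0.371, 0.360 and 0.374 at 1 h, and 0.678, 0.876 and 0.757 at 4 h. The 1 h ratios were nearly the same, but replicates 1 and 3 at 1 h were also nearly alike in the level of each gene. Only replicate 2 was higher, in both genes. The log2 difference between 4 h and 1 h was 1.06. In normal rats the Csrnp1 to Egr1 ratio was 0.897, 1.04 and 0.148, the lowest in replicate 3, where Egr1 was high. Both differences had an exact permutation p of 0.1 (two-sided, 3 against 3 libraries), the smallest that this design can give, and 0.2 after Benjamini-Hochberg adjustment over the 6 ratios computed. The ratios of Nr4a1 to Nr4a3, Ier3 to Ier2, Egr2 to Egr1 and Egr3 to Egr1 overlapped between 1 h and 4 h (exact permutation p = 0.2 each). All 6 pairs were chosen after the values were seen, and the adjustment does not cover that choice. With 3 against 3 libraries, groups that do not overlap always give an exact permutation p of 0.1.

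**Figure D3:**
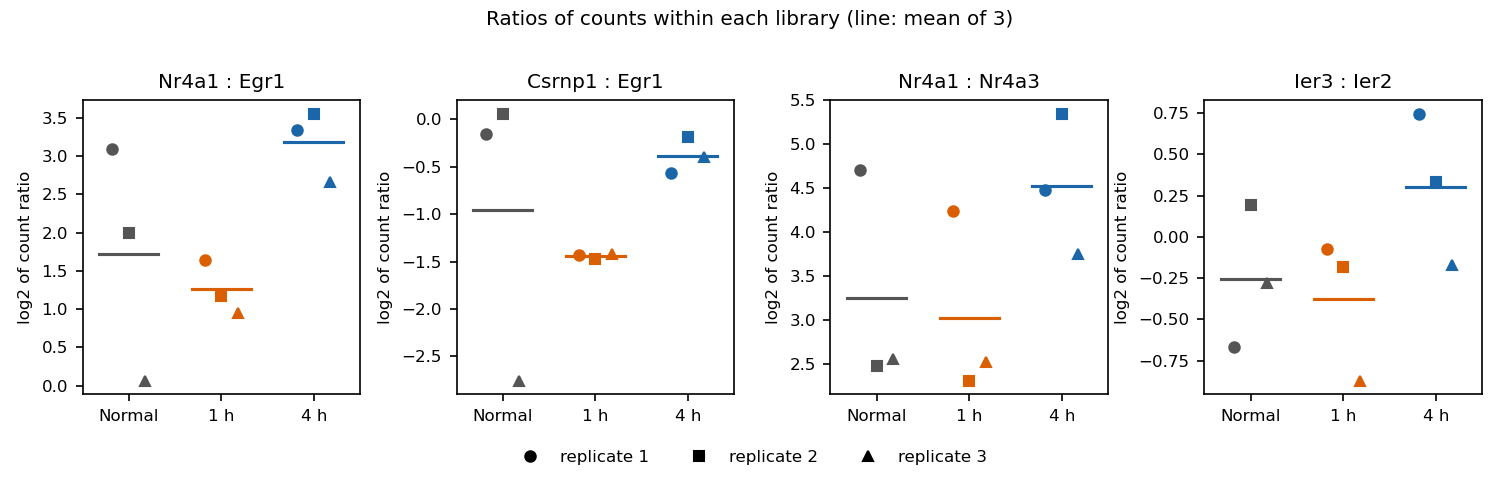
Log2 of the ratio of counts within each library (vertical axes) for 4 pairs of early genes, by group, with replicate number as symbol and the group mean as a line. The 4 h libraries lie above the 1 h libraries for Nr4a1 to Egr1 and Csrnp1 to Egr1, and the 1 h points of Csrnp1 to Egr1 lie on each other.

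The spread within groups differed between the genes. The pooled SD of log2 CPM within groups was 0.96 for Nr4a3 and 0.92 for Egr1, higher than in 81.6% and 80.3% of all tested genes. It was 0.33 for Ier2 and 0.40 for Csrnp1, below the median of all tested genes, 0.44. The remaining 6 genes lay between 0.54 and 0.68.

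Likeness of pattern was measured as the root mean square difference of log2 CPM over the 9 libraries, after each gene was centred on its own mean, against 11272 genes averaging at least 5 CPM. Egr2 and Egr3 averaged below that level themselves, and the limit was not applied to the 10 genes. Among the 10 genes, Egr2 and Egr3 were nearest to each other (0.57), as were Ier2 and Ier3 (0.47), Nr4a1 and Csrnp1 (0.59), and Egr1 and Nr4a3 (0.64). Outside them, the genes nearest to Egr1 were Zfp36 (0.54), a regulator of mRNA decay, and Junb (0.62), and those nearest to Csrnp1 were Nfil3 (0.30) and Adamts1 (0.32). Nfil3 (0.50) was also near to Nr4a1, together with Relt (0.42). Nr4a3 was nearest to Adamts1 (0.57) and Adamts9 (0.57), Egr2 to Trim16 (0.49) and Icam1 (0.52), and Egr3 to Uap1 (0.42) and Runx1 (0.42). Ier2 was nearest to Wee1 (0.26) and Stom (0.28), Ier3 to Tsc22d1 (0.23) and Lrrc32 (0.23), Ier5 to Ifitm3 (0.21) and Agfg2 (0.21), and Nr4a2 to Plxdc2 (0.29) and Cdc42ep4 (0.31).

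The partners of these factors were examined next. NAB1 and NAB2 are corepressors that bind EGR proteins, and NAB2 is itself known as an EGR-induced brake. Of 8 tested partner and family genes (Nab1, Nab2, Csrnp2, Csrnp3, Ier5l and the NR4A partners Rxra, Rxrb and Rxrg), 0 were called at 1 h or 4 h by edgeR, and at an unadjusted p under 0.05 Nab2 was lower at 1 h (against 8.67% of all genes) and Nab2 and Ier5l were lower at 4 h (against 7.35%). Nab2 was at 21.3, 24.2 and 38.8 CPM in normal rats, at 6.56, 15.1 and 8.36 CPM at 1 h and at 7.44, 7.38 and 5.88 CPM at 4 h. Both ischemic groups were entirely below normal, in the same libraries in which Egr1 was entirely above it. The log2 fold change of Nab2 was -1.49 at 1 h (SE 0.36, adjusted p = 0.207) and -2.03 at 4 h (SE 0.37, adjusted p = 0.0803). Nab1 overlapped normal at both times, with log2 fold changes of -0.49 (SE 0.28) and -0.31 (SE 0.28). Ier5l, a relative of Ier5, differed from normal by -1.41 on the log2 scale at 4 h (SE 0.39, adjusted p = 0.198) and -0.61 at 1 h (SE 0.38, adjusted p = 0.394), with 1 h replicate 2 inside the range of normal. Rxrg, a retinoid X receptor gene, was at 83.8, 7.96 and 14.6 CPM in normal rats, 31.2, 27.2 and 30.7 CPM at 1 h and 11.6, 27.3 and 30.0 CPM at 4 h, so normal replicate 1 stood far above all other libraries. Its log2 difference from normal was -0.26 at 1 h and -0.63 at 4 h, and 1.40 and 1.03 without that library (adjusted p = 0.281 and 0.501 by edgeR).

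Of 14 factors that act upstream of early genes (Srf, its Elk and Mkl partners, CREB family genes and their Crtc coactivators, Rela and Nfkb1), 0 were called at either time by edgeR. At an unadjusted p under 0.05, 1 gene (Crem) was higher and 1 (Elk3) lower at 1 h, and 1 (Elk3) was lower at 4 h, counts near the shares of all genes given above. Crem, which also gives rise to the CRE repressor ICER, was at 18.9, 19.6 and 14.6 CPM in normal rats, 21.1, 86.3 and 66.5 CPM at 1 h and 29.4, 22.6 and 34.9 CPM at 4 h. Its 1 h libraries were all above normal, replicate 1 only slightly, and the fitted log2 difference was 1.71 (SE 0.46, adjusted p = 0.216). Elk3, a ternary complex factor that can repress its targets, was at 74.8 ± 8.46 CPM in normal rats, 39.6 ± 8.66 CPM at 1 h and 47.4 ± 10.7 CPM at 4 h (SD, n = 3 each), with log2 fold changes of -0.92 (SE 0.24, adjusted p = 0.210 by edgeR) and -0.66 (SE 0.24, adjusted p = 0.310). Elk1 had values of -0.52 (SE 0.34) and -0.20 (SE 0.34).

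**Figure D4:**
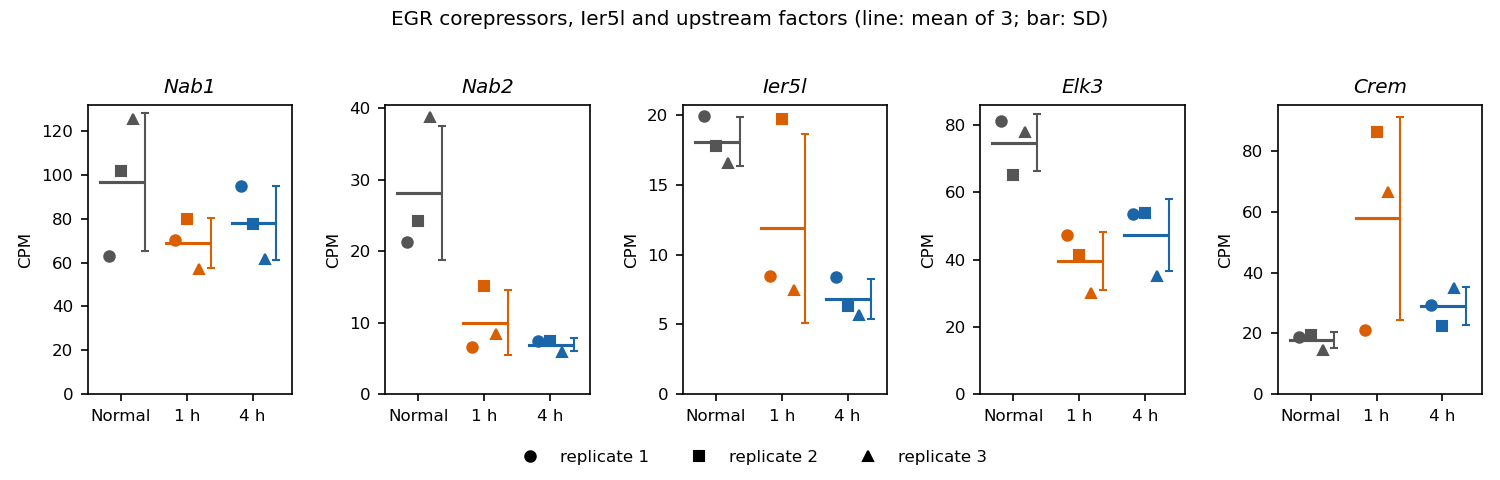
CPM (vertical axes, linear from 0) of the corepressor genes Nab1 and Nab2, of Ier5l and of the upstream factors Elk3 and Crem in the 9 libraries, with the group mean as a line and the SD as a bar. Nab2 is below 16 CPM in every ischemic library and above 20 CPM in every normal library.

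Among 36 other early genes tested (AP-1, KLF, DUSP and others), 4 were called higher at 1 h (against 0.0517% of all genes) and the same 4 at 4 h (against 0.0646%). The list was chosen with earlier results of these data known, so its counts are not independent of those results. The called genes were Sik1, a CREB-induced kinase, Apold1, an endothelial early gene, and the NF-kB regulators Nfkbiz and Nfkbia. Their log2 fold changes were 3.96, 4.94, 3.36 and 2.35 at 1 h and 4.29, 4.82, 3.08 and 2.70 at 4 h, in that order. Over 9 fits that each left out 1 library, Sik1 was called in 7 at 1 h and 9 at 4 h, Apold1 in 3 and 4, Nfkbiz in 3 and 3, and Nfkbia in 0 and 3. At an unadjusted p under 0.05, 16 were higher at 1 h, against 7.98% of all genes, and 0 lower. At 4 h, 15 were higher, against 5.07%, and 1 (Zfp36l1) was lower. Their median log2 fold change was 1.14 at 1 h and 1.09 at 4 h, against 2.52 and 1.57 for the 10 genes. Of 9 genes known as EGR1 targets in vessel cells, 0 were called by edgeR at either time. Icam1 and Vegfa had an unadjusted p under 0.05 upward at 1 h (against 7.98% of all genes), joined by Fgf2 at 4 h (against 5.07%). The median log2 fold change of the 9 was -0.0020 at 1 h and -0.035 at 4 h. Icam1, a leukocyte adhesion molecule, was at 37.7, 52.8 and 37.3 CPM in normal rats, 113, 499.7 and 318 CPM at 1 h and 106, 150 and 236 CPM at 4 h. Both ischemic groups were above normal, with log2 fold changes of 2.86 (SE 0.55, adjusted p = 0.141) and 1.95 (SE 0.53, adjusted p = 0.194). Vegfa had values of 0.78 (SE 0.24) and 1.25 (SE 0.24), in the same order. Pdgfb, the platelet-derived growth factor B chain, was at 58.0, 17.9 and 19.7 CPM in normal rats, 31.6, 15.0 and 19.7 CPM at 1 h and 9.59, 17.4 and 16.04 CPM at 4 h, with normal replicate 1 far above the others. Its log2 differences were -0.53 at 1 h and -1.15 at 4 h (SE 0.51 each, adjusted p = 0.579 and 0.407 by edgeR), and 0.23 and -0.39 without that library.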

How the data were processed

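Counts were taken from a single table of the series. The authors deposited raw whole-number counts per gene symbol for 37203 symbols, 1 column per library, and each column name matched 1 sample title. The submitters' processing notes name HISAT2, an aligner, with no version. Counting program, strand use, genome build and annotation are not given in the sources used here. The study's methods describe microarrays but also name paired-end analysis and pacBioToCA assembly. Its results name both gene chips and transcriptome sequencing. How this count table was made is not described there. The only coordinates given are those of RefSeq promoters on GRCr8, which is not known to be the build of the counts. Total counts of 13114273 to 15504240 limit precision for genes with few counts. No library was a copy of another (chi-square per degree of freedom of 31.7 or more for every pair).

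Genes were filtered with filterByExpr, scaled by TMM and tested with edgeR 4.0.16 in R 4.3.3 (glmQLFit, glmQLFTest; all 9 libraries, group as the only term) for each pair of groups and for the 3 groups jointly, with Benjamini-Hochberg adjustment over 15482 genes. Genes were called at an adjusted p under 0.05 and a fold change over 1.5. Standard errors are the log2 fold change divided by the square root of F, and 95% intervals use the total degrees of freedom of the fit. Log2 CPM used a prior count of 2. Alternatives were DESeq2 1.42.0, other scalings, no filter, only the groups compared, the replicate number as a block, the mean log2 CPM of sympathetic neuron markers as a covariate, and leaving out each library (for the genes of the lists, added after the values were seen). The named genes were all 10 members; from each list the genes called, and the 3 largest changes at 1 h or 4 h among genes averaging at least 5 CPM; and for each member its 2 nearest other genes. Egr4, Nab1, Fgf2, Zfp36l1 and the genes under other observations were named after their values were seen, as were Fos and Junb in normal rats. The members and lists were chosen with earlier results of these data known. Promoter sequences are those of RefSeq for GRCr8.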

Additional observations from a re-analysis of the deposited data

How the results depend on the processing

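The number of the 10 genes called depended on the tool and on single libraries. At 1 h, 1 gene was called, against 7 with DESeq2, 0 with only the groups compared and 0 in each of the 9 fits that left out a library (0 to 0). At 4 h, 2 were called, against 5 with DESeq2, 0 with only the groups compared and 0 to 2 without a library. In the test of all 3 groups together, 0 were called, against 7 with DESeq2, 1 without the filter on low counts and 2 with the neuron score as a covariate, while calls over all genes went from 6 to 669, 11 and 27. Between 4 h and 1 h the count was 0 in every alternative run. With the replicate number as a block, 1 gene was called at 4 h, and Nr4a1 was no longer among the calls (adjusted p = 0.0742 by edgeR). Same-numbered libraries did not deviate together throughout, with correlations of deviations from -0.65 to 0.66, so the numbers were not taken as pairs. Over all genes the block moved the calls at 4 h from 14 to 7, and among the 10 genes it changed no other call.

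Against normal, the signs of 9 of the 10 genes held in every alternative run at both times, the exception being Ier5 at 4 h. It was -0.025 when libraries were scaled by size alone and -0.024 to 0.54 without a library, the lowest without normal replicate 3. Between 4 h and 1 h, Csrnp1 was -0.041 under scaling by size alone and -0.21 with the neuron score, and Ier3 was -0.18 with the neuron score. Without a library, values ran from -0.068 to 0.57 for Nr4a2, from -1.09 to 0.19 for Nr4a3 and from -0.56 to 0.14 for Ier5. The causes were not tested. Scaling by size alone put the median of all genes at -0.15 at 4 h and at -0.24 between 4 h and 1 h. Egr2 and Egr3, at 9 to 219 and 15 to 187 counts, carry the largest counting error of the 10.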

Other observations

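Among the other early genes, 4 had an unadjusted p under 0.05 between 4 h and 1 h in the edgeR fit, and 0 were called. Of these, 3 were lower at 4 h (against 1.25% of all genes) and 1 was higher (against 1.33%). All 4 were picked after their values were seen. Arc, an early gene best known from neurons, was at 2.52, 2.55 and 5.54 CPM in normal rats, 10.03, 58.6 and 17.6 CPM at 1 h and 6.78, 9.12 and 4.23 CPM at 4 h, and its highest library was replicate 2 at 1 h. Every 4 h library was below every 1 h library, against 3.04% of all genes, and no other gene of this list had that order. Fosl1, an AP-1 gene, was at 1.07, 22.1 and 7.06 CPM at 1 h and at 0.66, 0.50 and 1.12 CPM at 4 h, on 6 to 17 counts at 4 h. Trib1 was at 13.5, 20.7 and 29.4 CPM at 1 h and at 3.56, 3.65 and 16.6 CPM at 4 h, so those groups overlapped. Per1, a clock gene induced by CREB and by glucocorticoids, was at 281, 378 and 218 CPM at 1 h and at 647, 504 and 408 CPM at 4 h. Its 4 h libraries were all above its 1 h libraries, against 3.2% of all genes. The same order was seen in Jund, Klf4 and Klf10 of this list, each with an unadjusted p above 0.05 in the edgeR fit.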
